A study of Mus musculus with 4 samples.

Results

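Interferon-response genes are the genes that cells switch on after type I or type II interferon binds its receptors. They were examined here in haematopoietic stem and progenitor cells of wild-type (WT) mice and of mice labelled Hif1a-/-. Hif1a encodes the part of the factor HIF-1 that oxygen controls. A list of 38 interferon-response genes was looked up by gene symbol in the annotation of the array, and 32 had a probe set with that symbol alone, out of 19938 genes measured in all. Isg15, Ifi47, Igtp, Gbp2 and Gbp6 were listed only on probe sets shared with other genes and Ifi44 on none, so these 6 are not analysed here. Each of the 32 had 1 probe set.

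The cells were sorted by flow cytometry from bone marrow of 8-week-old C57BL/6 mice as negative for lineage markers and positive for c-Kit and Sca-1, which takes in multipotent progenitors beside stem cells. Both genotypes share strain, age and gate. There were 2 arrays of each genotype, titled as biological replicates 1 and 2 and called numbers 1 and 2 below. How Hif1a was deleted, in which cells and by which Cre, and whether mice were pooled are not given in the sources used here. If the replicates were not separate mice, the p-values measure only the spread between these samples.

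Values are log2 signals, so a difference of 1 is a doubling, and each difference below is Hif1a-/- minus WT. Hif1a itself had log2 signals of 10.37 and 10.99 in WT and 10.58 and 10.64 in Hif1a-/-. The difference was −0.08 (SE 0.24, unadjusted p of 0.771 in limma). Which part of the gene was removed is not stated, and the probes may lie elsewhere in it, so this does not check the genotypes and the arrays are named by their labels. The gate's marker gene Kit had signals of 12.57 and 11.51 in WT and 12.37 and 11.32 in Hif1a-/-, and Ly6a, which encodes Sca-1, had no probe set of its own. Neutrophil genes and stem and progenitor genes set the numbers apart in both genotypes. The median log2 signal of 12 neutrophil genes was 10.56 in WT 1, 10.35 in Hif1a-/- 1, 12.37 in WT 2 and 12.82 in Hif1a-/- 2, and that of 12 stem and progenitor genes was 10.88, 10.69, 9.27 and 8.57 in the same order. Genotypes are therefore also set against each other within each number, with 1 array on each side and so no test.

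Type I interferons signal through paired receptors to the kinases JAK1 and TYK2. Type I interferon activates transcription factors, STAT2 and IRF9 among them, that act at the interferon-stimulated response element (ISRE) before its target genes. The targets include proteins that bind viral RNA, degrade it or block its translation, sensors that detect it, GTPases that act on viruses and on vacuoles holding bacteria, and the factors of the pathway itself, which makes the response self-reinforcing. In the marrow, interferon is known to drive dormant stem cells into cycle, and a low level of these transcripts is present without infection.

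The promoters of the members were searched for the core of the ISRE. RefSeq promoter windows of GRCm38.p6, which run from 250 bases before to 50 bases after a gene's start, were present for 21 of the 32 members. The ISRE core was searched as GAAANNGAAA on both strands, where it reads TTTCNNTTTC on the other strand, with overlapping matches counted. It was found for 12 of 21 members (57.1%), against 3.99% of all 27025 genes with a window. Over 1 match was found for 6 of the 21 members, against 0.266% of all genes. A match is a description of these letters and not a measured binding site. The 12 members with a match had a median difference between genotypes of 0.20 log2 units (from −0.13 to 0.82). The 9 with a window and no match had 0.25 (from −0.04 to 0.48). Among these 21 a match did not go with a larger median difference. Mx1, Usp18, Oas2 and Mx2, with differences of 0.71, 0.61, 0.59 and 0.59, had no window. The comparison therefore leaves out several of the largest differences and cannot tell whether a match goes with them.

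Of the members that hold a match before the start, the 6 with the largest differences are printed to show where the core lies. Each line gives the 250 bases before the gene's start, 5′ to 3′ on the gene's strand, with matches to the core in capitals.
Ifit3 (chr19:34583279-34583528, plus strand): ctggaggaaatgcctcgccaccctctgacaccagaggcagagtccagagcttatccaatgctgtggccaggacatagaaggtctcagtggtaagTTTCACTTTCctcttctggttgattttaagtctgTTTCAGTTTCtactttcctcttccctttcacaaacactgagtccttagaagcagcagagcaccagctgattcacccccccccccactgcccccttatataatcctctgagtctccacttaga
Rsad2 (chr12:26456453-26456702, minus strand): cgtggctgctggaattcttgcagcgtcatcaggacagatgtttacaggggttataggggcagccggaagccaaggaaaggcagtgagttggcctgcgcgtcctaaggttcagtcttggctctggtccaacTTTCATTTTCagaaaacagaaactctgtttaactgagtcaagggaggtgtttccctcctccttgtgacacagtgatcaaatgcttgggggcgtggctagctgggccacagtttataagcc
Ifit1 (chr19:34640639-34640888, plus strand): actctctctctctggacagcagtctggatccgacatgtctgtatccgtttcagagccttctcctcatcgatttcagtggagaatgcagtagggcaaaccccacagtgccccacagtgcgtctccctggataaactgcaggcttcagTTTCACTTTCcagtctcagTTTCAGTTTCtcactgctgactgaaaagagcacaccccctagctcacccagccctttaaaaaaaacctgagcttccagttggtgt
Stat2 (chr10:128270248-128270497, plus strand): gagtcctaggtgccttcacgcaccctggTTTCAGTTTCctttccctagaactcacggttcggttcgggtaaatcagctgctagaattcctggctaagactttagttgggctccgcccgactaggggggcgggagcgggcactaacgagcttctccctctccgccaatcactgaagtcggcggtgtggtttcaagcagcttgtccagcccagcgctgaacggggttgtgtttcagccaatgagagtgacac
Trim30a (chr7:104465194-104465443, minus strand): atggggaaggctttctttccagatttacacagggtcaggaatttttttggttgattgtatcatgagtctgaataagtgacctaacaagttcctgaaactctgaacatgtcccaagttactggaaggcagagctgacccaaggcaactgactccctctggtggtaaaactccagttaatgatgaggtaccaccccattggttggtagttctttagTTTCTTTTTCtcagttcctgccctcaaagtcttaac
Oas3 (chr5:120777660-120777909, minus strand): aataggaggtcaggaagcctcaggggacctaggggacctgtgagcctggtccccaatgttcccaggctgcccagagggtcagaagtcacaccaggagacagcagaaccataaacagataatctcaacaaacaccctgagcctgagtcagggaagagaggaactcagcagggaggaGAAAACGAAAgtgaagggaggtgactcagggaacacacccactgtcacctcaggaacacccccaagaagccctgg

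The 2 IFIT promoters each hold a pair of cores of the same letters, which begin 156 and 122 bases before the start of Ifit3 and 104 and 85 bases before that of Ifit1. The single core of Rsad2 begins 120 bases before the start and that of Oas3 75 bases before it. The core of Trim30a begins 36 bases before the start. In Stat2 the core, with the letters of the second IFIT core, begins 222 bases before the start, the farthest of the 6.

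Most interferon-response genes had somewhat higher signals in the Hif1a-/- arrays, and none passed the test over all genes. Of the 32 members 29 were higher in the mean, beside 50.6% of all genes, and 3 were lower (Gbp3, Ifi27 and Lgals3bp), beside 49.4%. At least 1.2-fold higher in the mean were 17 members (53.1%), beside 4.72% of all genes. The median difference was 0.28 log2 units over the members and 0.00 over all genes. It was 0.23 in number 1 and 0.30 in number 2. Both Hif1a-/- arrays lay above both WT arrays for 10 members (31.2%), beside 16.1% of all genes, and the reverse held for 0 members, beside 8.33% of all genes. For 6 of the 10 the gap between the groups was at least 0.1 log2 units, and for Ifit1 and Ifih1 the groups were all but touching.

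In number 1, 31 of 32 members were higher in Hif1a-/- (55.3% of all genes), and in number 2, 27 of 32 (51.0% of all genes). In both numbers at once, 26 members were higher (81.2%), beside 27.3% of all genes, and 0 were lower, beside 21.0%. At least 1.2-fold higher in number 1 were 16 members, beside 5.90% of all genes, and in number 2 17 members, beside 13.7%. At least 1.2-fold higher in both numbers were 11 members (34.4%), beside 1.24% of all genes. These were Ifit1, Ifit2, Ifit3, Usp18, Oas2, Mx1, Mx2, Rsad2, Zbp1, Iigp1 and Trim30a. No member was at least 1.2-fold lower in both numbers, beside 0.792% of all genes.

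**Figure D1:**
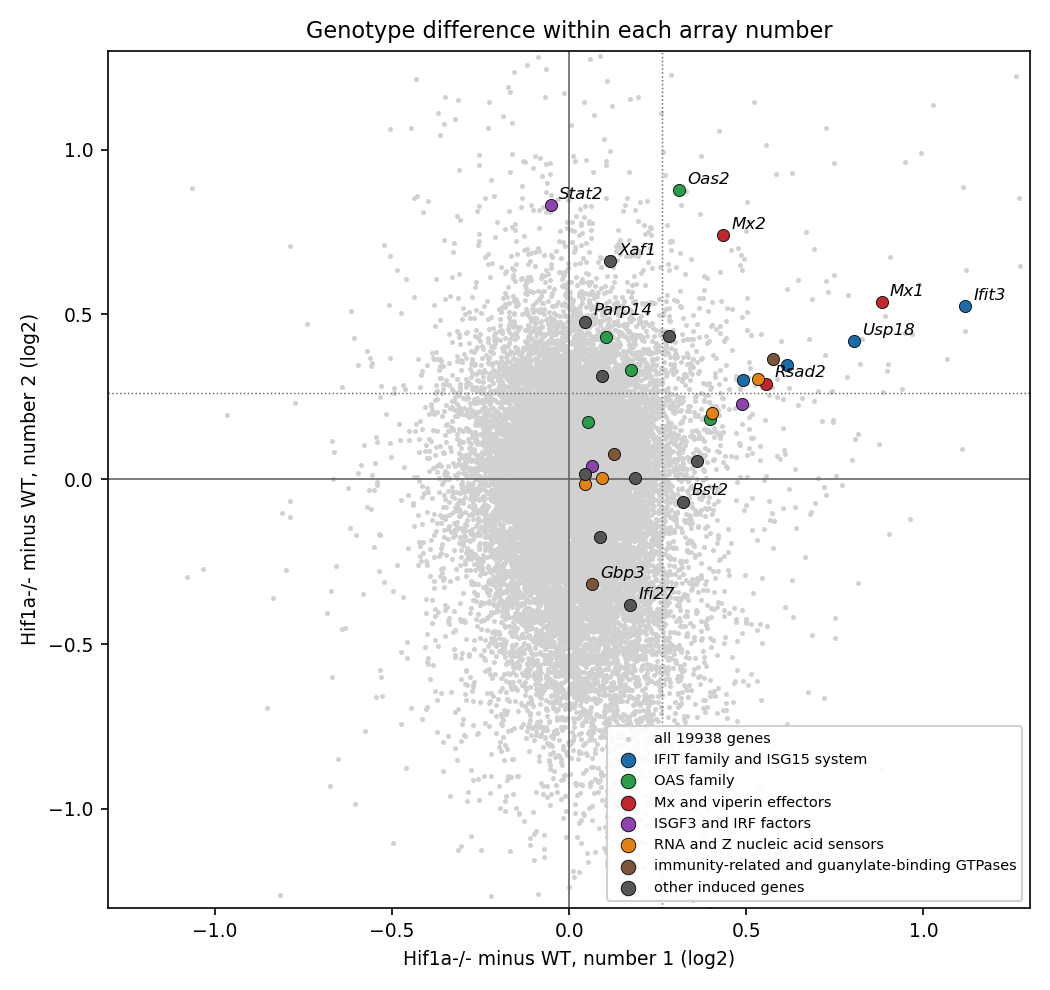
Each point is a gene, with its Hif1a-/- minus WT difference (log2) in number 1 across and in number 2 upward; coloured points are the 32 members by role, grey points all genes (68 lie outside the axes), and dotted lines mark 1.2-fold. Members gather in the upper right, where 26 of 32 lie above 0 on both axes, and 11 lie beyond both dotted lines.

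How bright a gene is and how the arrays are scaled bear on these counts. Among the 7975 dimmest genes (40% of all) 69.5% were higher in Hif1a-/-, and among the 11963 brighter ones 38.1%. Of the members 31 are in the brighter set, where 18.4% of genes were higher within both numbers and 8.25% had both Hif1a-/- arrays above both WT arrays. The median difference of all genes moved to −0.05 under quantile normalization, −0.08 under median centring and −0.02 under cyclic loess. Members higher in the mean then numbered 30, 25 and 30 of 32, beside 36%, 27.9% and 43.5% of all genes, and members with both Hif1a-/- arrays on top 12, 6 and 13, beside 7.06%, 6.16% and 9.28%. The 26 members higher within both numbers became 28, 20 and 29, beside 16%, 12.7% and 19.6% of all genes. The 11 members at least 1.2-fold higher in both numbers became 12, 5 and 12, beside 0.918%, 0.607% and 0.978%.

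In the test over all genes, limma called 0 of 19938 genes at an adjusted p under 0.05 (0% of genes), with 0.9998 as the lowest value. Mx2 and Rsad2, 2 of the 32 members (6.25%), had an unadjusted p under 0.05, beside 0.727% of all genes. Both were higher in Hif1a-/-, and 0.547% of all genes had such a p and were higher. This became 3 members without WT array 1, beside 2.98% of all genes, and 0 without Hif1a-/- array 2, beside 0.286%. The members' median was then 0.14 and 0.17 log2 units. The median standard error of a member's difference was 0.25, near the size of the median difference itself. With 2 arrays against 2, an exact two-sided permutation test of a single gene cannot go below p = 0.333.

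**Figure D2:**
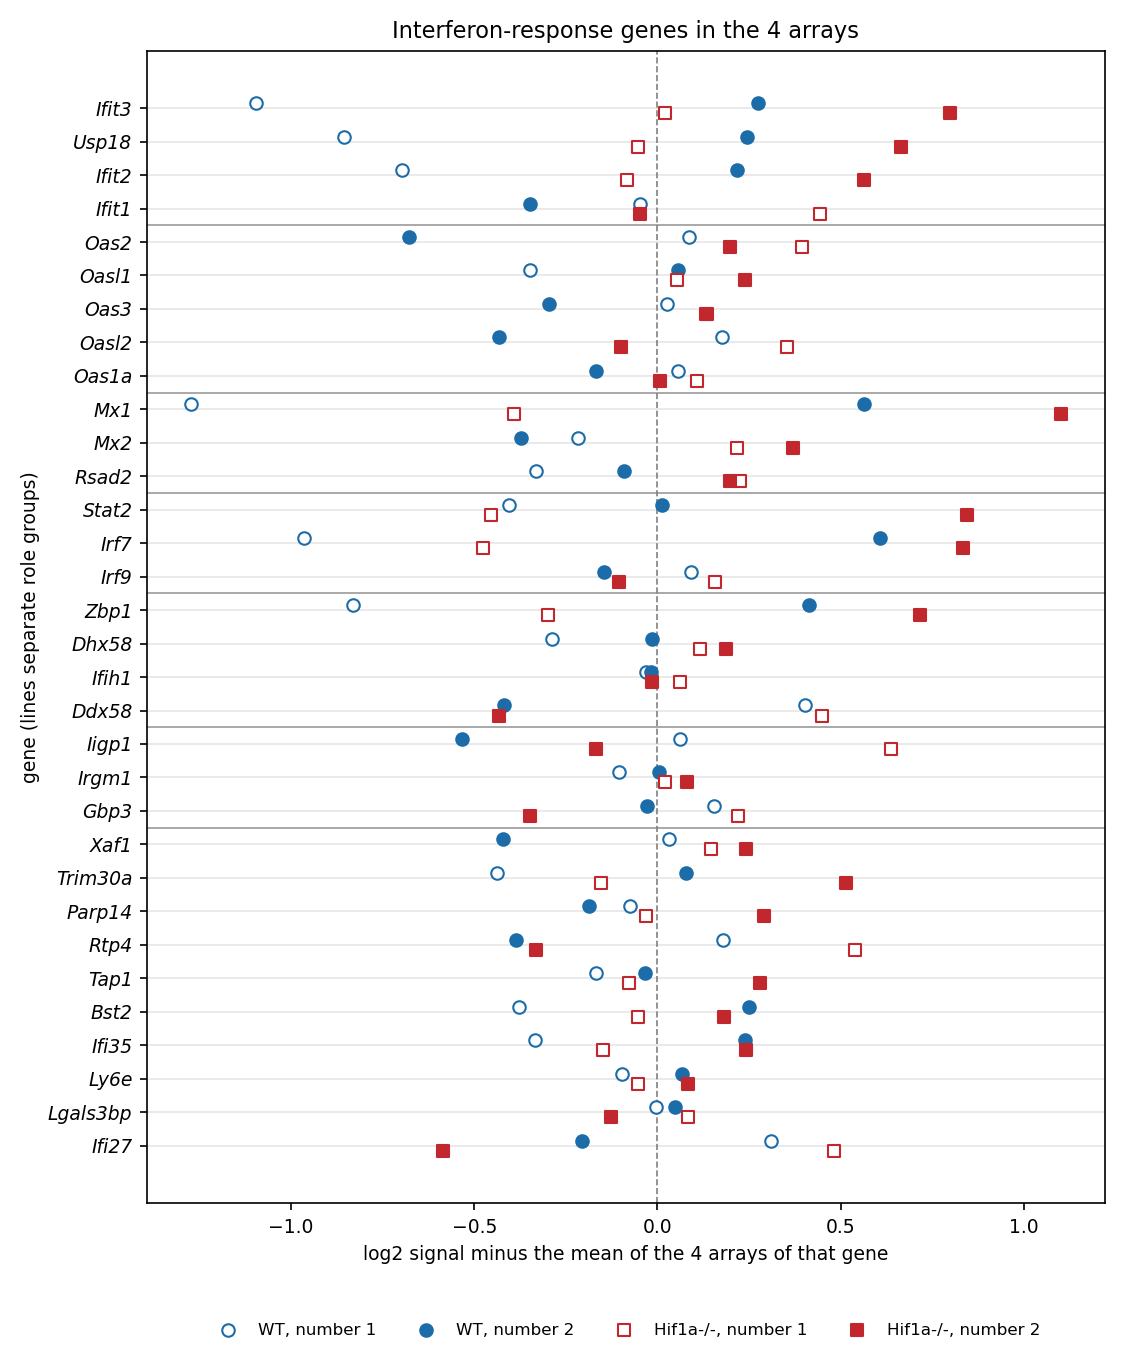
Each row is 1 of the 32 members, and each point an array, as its log2 signal minus that gene's mean over the 4 arrays; circles are WT, squares Hif1a-/-, open symbols number 1 and filled symbols number 2, and grey lines separate role groups. For most rows the square lies right of the circle of the same fill, and for Ifit3, Usp18, Mx1, Irf7 and Zbp1 filled symbols lie far right of open ones.

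The IFIT proteins bind foreign RNA and hold back its translation, and USP18 removes the ubiquitin-like protein ISG15 from its targets and dampens the type I receptor. This group had the widest steps between genotypes in number 1. Ifit3 had log2 signals of 7.94 and 9.31 in WT and 9.06 and 9.84 in Hif1a-/-. WT 1 was the lowest array and Hif1a-/- 2 the highest, and the groups overlapped because WT 2 lay above Hif1a-/- 1. The Ifit3 difference was 0.82 (1.77-fold, SE 0.57, 95% interval −0.76 to 2.40), with 1.12 in number 1 and 0.52 in number 2. Usp18 read 9.37 and 10.47 in WT and 10.17 and 10.89 in Hif1a-/-, in the same order of arrays as Ifit3. Its difference was 0.61 (SE 0.48), with 0.80 in number 1 and 0.42 in number 2.

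Ifit2 followed that order too, with 8.56 and 9.47 in WT and 9.17 and 9.82 in Hif1a-/-, a difference of 0.48 (SE 0.41). Ifit1 did not. It read 8.85 and 8.55 in WT and 9.34 and 8.85 in Hif1a-/-, so that number 1 was the brighter in each genotype and the groups met without overlap. The Ifit1 difference was 0.40 (SE 0.23), with 0.49 in number 1 and 0.30 in number 2. Ifit3 has a close copy, Ifit3b, measured on its own probe set with a difference of 0.24, and how well the probes separate the copies was not tested. All 4 measured members of this group were higher in Hif1a-/- within both numbers, also under the 3 other scalings.

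The OAS enzymes make short oligoadenylates when they meet double-stranded RNA, which activates the nuclease RNase L, and the OAS-like proteins share the fold. All 5 were higher within both numbers, again under each scaling. Oas2 read 9.99 and 9.22 in WT and 10.30 and 10.10 in Hif1a-/-, with both Hif1a-/- arrays above both WT arrays. Its difference of 0.59 (1.51-fold, SE 0.30, unadjusted p of 0.118 in limma) came from 0.31 in the first number and 0.88 in number 2, where WT 2 was low. Oas3 read 9.74 and 9.42 in WT and 9.85 in both Hif1a-/- arrays, a difference of 0.27 (SE 0.16) with no overlap. Oasl1, Oasl2 and Oas1a differed by 0.29, 0.25 and 0.11, and their groups overlapped.

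Mx2 and Rsad2 were the members with the smallest p. Mx proteins are dynamin-like GTPases that trap viral components, and viperin, encoded by Rsad2, makes a nucleotide that stops viral RNA synthesis. Mx2 read 7.58 and 7.42 in WT and 8.01 and 8.16 in Hif1a-/-. Arrays of a genotype lay close together (SD 0.11 in each group, n = 2) and the groups were 0.43 apart at their nearest. The Mx2 difference was 0.59 (1.5-fold, SE 0.13, 95% interval 0.23 to 0.95, unadjusted p of 0.0108 in limma, adjusted p of 0.9998). Mx2 is the 1 member among the dimmest 40% of genes. In that set 27.9% of genes had both Hif1a-/- arrays above both WT arrays, beside 8.25% of the brighter genes. Rsad2 read 8.77 and 9.01 in WT and 9.33 and 9.30 in Hif1a-/-. Its groups were 0.29 apart at their nearest, and the difference was 0.42 (1.34-fold, SE 0.14, unadjusted p of 0.0353 in limma, adjusted p of 0.9998). Under median centring the unadjusted p in limma was 0.0139 for Mx2 and 0.119 for Rsad2.

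Mx1 had the opposite build, a large step between numbers. C57BL/6 mice, like many laboratory strains, carry a defective Mx1 allele, and its transcript can still be induced. Mx1 read 7.60 and 9.43 in WT and 8.48 and 9.97 in Hif1a-/-. Both arrays of number 2 lay above both of number 1, by 1.84 in WT and 1.49 in Hif1a-/-. Within numbers Hif1a-/- was higher by 0.88 and 0.54, and the difference of the means was 0.71 (SE 0.85). Without WT array 1 it was −0.21, and without Hif1a-/- array 2 it was −0.04. In both of these fits the numbers are unbalanced between genotypes, so the step between numbers enters the difference.

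The factors of the pathway gave smaller or less even values. IRF7 amplifies type I interferon production, and its gene read 9.58 and 11.15 in WT and 10.07 and 11.38 in Hif1a-/-. The genotype difference of 0.36 (SE 0.73) was small beside the step of 1.57 and 1.31 between the numbers. Stat2 read 10.30 and 10.72 in WT and 10.25 and 11.55 in Hif1a-/-. Its difference of 0.39 (SE 0.49) came from number 2 alone, with −0.05 in number 1 and 0.83 in number 2, which made it the 1 member that was lower in number 1. Irf9 differed by 0.05 (SE 0.16), and this turned to −0.03 under median centring.

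Among the sensors the levels parted. ZBP1 detects nucleic acids in the Z form and can trigger cell death, and Zbp1 read 8.92 and 10.16 in WT and 9.45 and 10.47 in Hif1a-/-, a difference of 0.42 (SE 0.58). Dhx58, whose product LGP2 modulates the other RNA sensors, read 9.85 and 10.12 in WT and 10.25 and 10.33 in Hif1a-/-. Its groups did not overlap and the difference was 0.30 (SE 0.15). The receptors that signal from viral RNA, Ddx58 (RIG-I) and Ifih1 (MDA5), differed by 0.02 and 0.05, and these turned to −0.07 and −0.04 under median centring. Ddx58 was nearly the same in each pair, with 10.80 and 10.85 in number 1 and 9.98 and 9.97 in number 2. Ifih1 read 9.82 and 9.84 in WT and 9.92 and 9.84 in Hif1a-/-, the narrowest range among the sensors.

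The GTPase group was the least complete, with 3 of 7 genes measured. These proteins assemble on vacuoles that hold bacteria and parasites and respond mainly to interferon gamma. Iigp1 read 8.35 and 7.75 in WT and 8.92 and 8.12 in Hif1a-/-, a difference of 0.47 (SE 0.37). It was higher by 0.58 in number 1 and 0.37 in number 2. Irgm1 read 10.03 and 10.14 in WT and 10.15 and 10.21 in Hif1a-/-, a difference of 0.10 (SE 0.11). Gbp3 read 9.72 and 9.54 in WT and 9.79 and 9.22 in Hif1a-/-. Its difference was −0.13 (SE 0.24), with 0.07 in number 1 and −0.32 in number 2, and it was 0.16 without Hif1a-/- array 2.

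The other 10 members had a median difference of 0.16, with 8 higher, which became 7 under median centring. Xaf1, a pro-apoptotic gene that antagonises the inhibitor XIAP, read 9.27 and 8.82 in WT and 9.39 and 9.48 in Hif1a-/-. The groups did not overlap, and the difference of 0.39 (SE 0.19) was mostly from number 2 (0.66, beside 0.12 in number 1). Parp14, an ADP-ribosyltransferase, was likewise without overlap at 10.05 and 9.94 in WT and 10.10 and 10.42 in Hif1a-/-, a difference of 0.26 (SE 0.16). Trim30a, a TRIM protein gene that restrains Toll-like receptor signals, differed by 0.36, the chaperone gene Rtp4 by 0.21, and Tap1 of the peptide transporter for MHC class I by 0.20. Bst2, which encodes the virus tether tetherin, and Ifi35 differed by 0.13 and 0.10. Ly6e, a surface protein gene that restricts coronaviruses, differed by 0.03.

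Ifi27 and Lgals3bp were lower in the mean, yet not in each number. Ifi27 read 10.89 and 10.38 in WT and 11.07 and 10.00 in Hif1a-/-, with a difference of −0.10 (SE 0.43), 0.17 in number 1 and −0.38 in number 2. It became 0.43 without Hif1a-/- array 2 and 0.15 without WT array 1. Lgals3bp, which encodes a secreted galectin-binding protein, read 12.32 and 12.37 in WT and 12.40 and 12.19 in Hif1a-/-. Its difference of −0.04 (SE 0.13) turned to 0.04 under cyclic loess and to 0.06 without Hif1a-/- array 2.

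The members that led differed between the numbers. In number 1 the largest differences were those of Ifit3 (1.12), Mx1 (0.88), Usp18 (0.80), Ifit2 (0.61) and Iigp1 (0.58). In number 2 they were those of Oas2 (0.88), Stat2 (0.83), Mx2 (0.74), Xaf1 (0.66) and Mx1 (0.54). Across the 32 members the differences in number 1 and number 2 had a Pearson r of 0.31 and a Spearman rho of 0.33, beside −0.01 and −0.06 across all genes. They share 4 arrays and no p is attached to them.

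Between the numbers, members moved in both directions. The share higher in number 2 was above that of all genes, and the share lower was near it. In both genotypes 15 members were higher in number 2 (46.9%, beside 25.7% of all genes), among them Mx1, Irf7, Zbp1, Ifit3, Usp18 and Ifit2. In both genotypes 10 members were lower in number 2 (31.2%, beside 33.7%), among them Ddx58, Iigp1, Rtp4, Oasl2 and Ifi27. Ddx58 was lower in number 2 by 0.82 in WT and by 0.88 in Hif1a-/-, and Ifi27 by 0.51 and 1.07. The step from number 1 to number 2 had a Pearson r of 0.87 and a Spearman rho of 0.88 between the genotypes across the members, beside 0.67 and 0.37 across all genes. For 22 of 32 members the numbers differed more than the genotypes (68.8%, beside 60.0% of all genes), with a median absolute difference of 0.41 between numbers and 0.28 between genotypes.

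**Figure D3:**
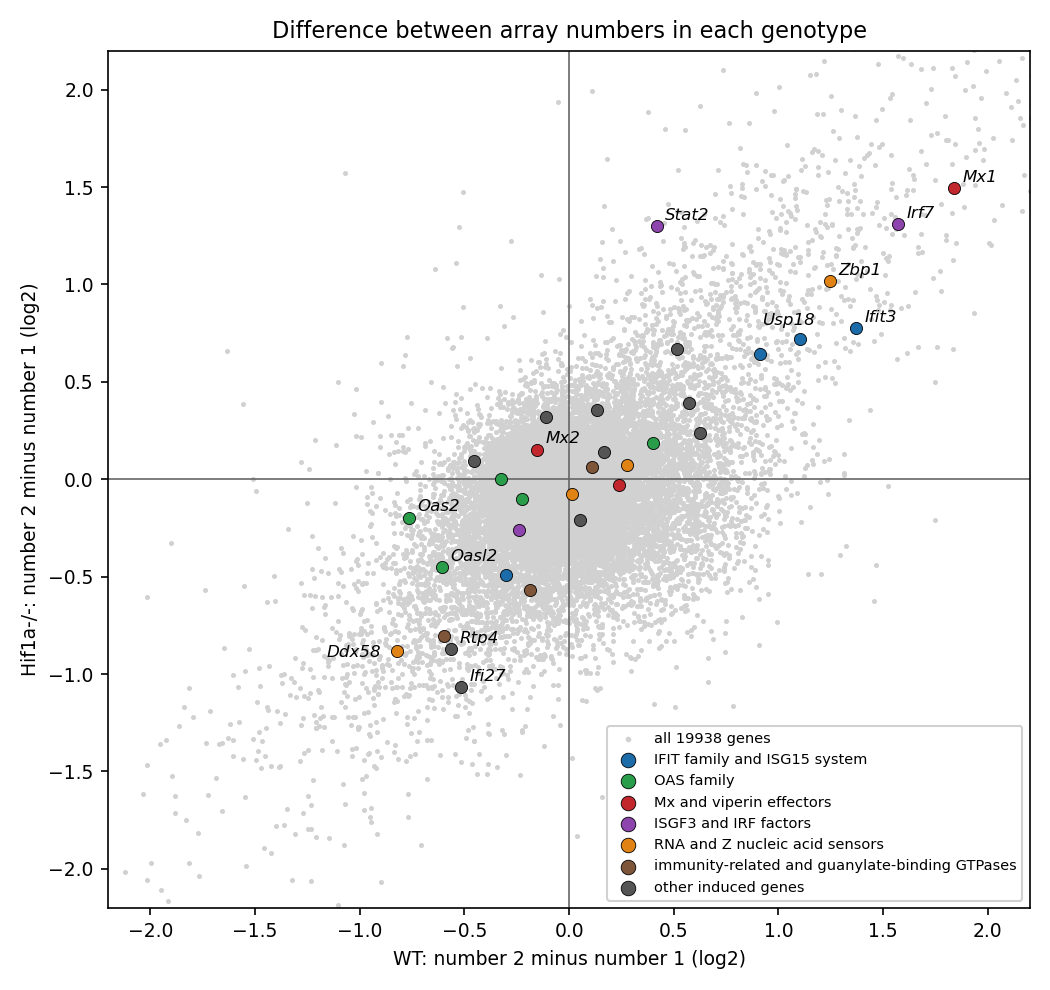
Each point is a gene, with its number 2 minus number 1 difference (log2) in WT across and in Hif1a-/- upward; coloured points are the 32 members by role and grey points all genes (164 lie outside the axes). Members spread along the diagonal, with Mx1 and Irf7 at the upper right and Ddx58 and Ifi27 at the lower left.

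The rest of the pathway was given by lists of genes that are not members. Receptors and JAK-STAT genes were balanced, with 7 of 16 higher and a median of −0.01. Ifnar1, a chain of the type I receptor, read 10.64 and 10.67 in WT and 10.62 and 10.69 in Hif1a-/-. Ifnar2, its partner chain, was lower by −0.19 (−0.06 in number 1, −0.31 in number 2), and Ifnlr1, the type III receptor gene, was higher by 0.34 (0.05 and 0.62). Upstream sensing genes had 6 of 15 higher and a median of −0.03, with the Toll-like receptor chaperone gene Unc93b1 at 0.27 and the kinase gene Irak1 at −0.24. Under quantile normalization 9 of 16 receptor genes and 8 of 15 sensing genes were higher, with medians of 0.05 and 0.02, and under median centring 3 and 4, with −0.10 and −0.11, so neither list has a stable direction. The other interferon regulatory factors had 4 of 8 higher and a median of −0.01, with Irf8 at 0.32 and Irf1 at 0.11. Antigen presentation genes had 10 of 14 higher and a median of 0.04, with the class I transactivator gene Nlrc5 at 0.41 and the immunoproteasome gene Psmb10 at −0.23, and under median centring 5 of 14 were higher with a median of −0.05.

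Further interferon-induced genes lay on the same side as the members. Of 41 measured, 34 were higher in the mean, beside 50.6% of all genes, and 24 within both numbers, beside 27.3%. Their median was 0.16, or 0.11 within number 1 and 0.23 within number 2. Under median centring 28 were higher in the mean, beside 27.9% of all genes. Herc6, an ISG15 ligase gene, read 9.83 and 9.50 in WT and 10.03 and 10.18 in Hif1a-/-, a difference of 0.44 (SE 0.17). Eif2ak2, which encodes the RNA-activated kinase PKR, read 9.73 and 9.52 in WT and 9.90 and 10.09 in Hif1a-/-, a difference of 0.37 (SE 0.15). For both genes the groups did not overlap. Ifitm1 and Ifitm2, membrane proteins that block virus entry, went the other way at −0.34 and −0.24. The pathway lists, with the ligand genes, held 16, 16, 8, 15, 14 and 41 measured genes. Over all of them 1 gene had an unadjusted p under 0.05 in limma, the ligand gene Ifna12, beside 0.727% of all genes. An adjusted p under 0.05 was reached by 0, beside 0% of all genes.

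The interferon genes themselves were dim. Of 16 measured ligand genes 13 lay among the dimmest 40% of genes, where 69.5% of all genes were higher in Hif1a-/-. Of the 16 genes 15 were higher in the mean, and their median was 0.18, or 0.04 within number 1 and 0.29 within number 2. The 15 became 10, 11 and 12 under quantile normalization, median centring and cyclic loess. Ifna12 read 6.11 and 5.90 in WT and 6.41 and 6.44 in Hif1a-/-, a difference of 0.42. Ifnb1 differed by 0.04 and Ifng by 0.27. The alpha interferon genes are near copies of each other, so values of single genes in this family are uncertain.

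**Figure D4:**
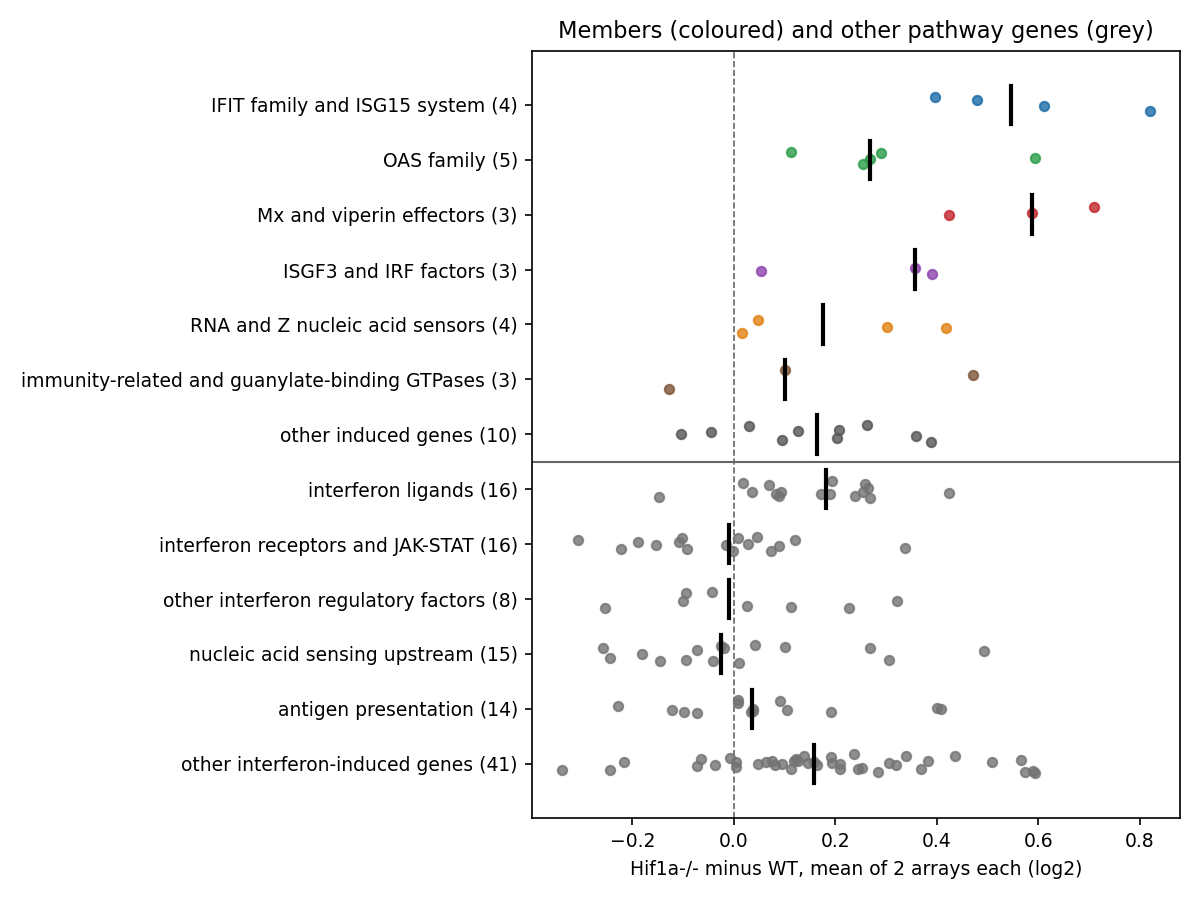
Each point is a gene, with its Hif1a-/- minus WT difference in log2 units across and its list on the vertical axis (number of genes in brackets); coloured points are members by role, grey points other pathway genes, and black bars are medians. All IFIT, OAS, Mx and viperin points lie right of 0, and receptors and upstream sensing genes straddle it.

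Markers of some other cells also differed between genotypes, B cell markers most clearly, and their part in the interferon values was not tested. In bulk RNA, fewer cells of a type and less RNA per cell cannot be told apart. All 9 measured B cell markers were higher in Hif1a-/- (8 under quantile normalization), beside 50.6% of all genes. Of the 9, 6 had an unadjusted p under 0.05 in limma, beside 0.727% of all genes. The list medians were 9.35 and 9.62 in WT and 10.93 and 10.42 in Hif1a-/-. T and NK cell markers were higher for 9 of 10, with medians of 6.97 and 7.94 in WT and 7.15 and 8.71 in Hif1a-/-, and 6 of the 10 lay among the dimmest 40% of genes. Plasmacytoid dendritic cells, the main source of type I interferon in blood, had 3 of 7 markers higher, 4 lower and a median difference of −0.00. Their defining gene Siglech read 8.61 and 8.64 in WT and 8.43 and 8.78 in Hif1a-/-. Spib had the largest difference of the 7, 0.72 (1.07 in number 1, 0.36 in number 2), and its groups did not overlap. Stem and progenitor genes were lower in the mean for 12 of 12, with a median of −0.24, and for 11 under quantile normalization and cyclic loess. Within both numbers 9 were lower, beside 21.0% of all genes. The groups overlapped for all 12, and 0 had an unadjusted p under 0.05 in limma. From number 1 to number 2 the median step of this list was −0.98 in WT and −0.89 in Hif1a-/-. Neutrophil markers were higher in the mean for 8 of 12, but the median difference was −0.22 in number 1 and 0.93 in number 2. Within both numbers 1 was higher and 4 were lower, beside 27.3% and 21.0% of all genes. Monocyte and macrophage markers were higher in the mean for 6 of 10, beside 50.6% of all genes. Within both numbers 2 of the 10 were higher, beside 27.3%, with medians of 0.04 in number 1 and −0.06 in number 2. In the mean, beside 50.6% of all genes, mast cell and basophil markers were higher for 6 of 9. Stroma and endothelium markers were higher for 5 of 9 (1 under median centring) and erythroid and megakaryocyte markers for 0 of 7.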

How the data were processed

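RNA from the 4 samples was amplified, labelled with biotin and hybridised to Affymetrix whole-transcript arrays, per the labels' protocols. The authors deposited log2 signals. Per the submitters' processing notes, RMA and Affymetrix Expression Console 1.1 were used. The deposited arrays still differ in distribution, with interquartile ranges over all probe sets from 2.49 to 2.78, so other scalings were tried. Base 2 was inferred from how far the values reach. The genome build was not given in the sources used here.

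Of 35556 probe sets, 21789 had 1 gene symbol, 1621 several and 12146 none listed. For genes with several probe sets (999) the one with the highest mean was used, which left 19938 genes. No depth exists for arrays, and their number limits the precision. The comparison used limma 3.58.1 (R 4.3.3) without covariates, two-sided, by lmFit and eBayes, with Benjamini-Hochberg adjustment over all genes and a threshold of 0.05, after tests on simulated data. Members and lists were chosen with earlier results of these data known. Values by array are given for members whose groups did not overlap, had an unadjusted p under 0.05, or had the 3 largest or 3 smallest differences, and for Ifit2, Irf7, Stat2, Ddx58, Zbp1 and Iigp1, which were added after their values were seen. Up to 2 genes per direction with the smallest p were eligible from each pathway list. Ifnar1, Ifnb1, Ifng, Ifit3b, Kit, Siglech and Spib were chosen after their values were seen. The settings varied were a block for the replicate number, each array left out, 3 scalings, a filter on the dimmest 40% of genes, averaged probe sets, eBayes with trend and robust, and a shorter promoter motif.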

Additional observations from a re-analysis of the deposited data

How the results depend on the processing

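The count of genes with an adjusted p under 0.05 was 0 in limma under every alternative run, while the count at an unadjusted p under 0.05 (145 as reported) was 478 with the replicate number as a block, 39 without the dimmest 40% of genes, 339 with eBayes trend and robust, and from 57 to 622 with 1 array left out. The numbers are not stated to mark a shared day or litter. Deviations of the arrays with the same number had a Pearson r of 0.67 and a Spearman rho of 0.37 across all genes, which is a hint from the data only, and with the block 12 of 32 members had an unadjusted p under 0.05, beside 2.40% of all genes. The 2 members at an unadjusted p under 0.05 became 1 under median centring, 1 with eBayes trend and robust, 0 without the dimmest 40% of genes and from 0 to 3 with 1 array left out. The 10 members without overlap became 6 under median centring (6.16% of all genes) and from 15 to 22 with 1 array left out (from 32.0% to 37.5% of all genes), where fewer arrays have to be separated. The members' median difference ranged from 0.14 to 0.32 with 1 array left out, and the count higher in the mean from 24 to 26, beside 49.8% to 57.0% of all genes. With an array left out, the lone array is assumed to vary like the others, and the count within both numbers cannot be formed. The shorter promoter motif also matched 12 members, but 9.76% of all genes where the core matched 3.99%. Of 175 alternative values for the 16 members named by rule, 9 changed sign. These were Ifih1 under median centring (−0.039), Lgals3bp under cyclic loess (0.041) and quantile normalization (0.000082), and, with an array left out, Mx1 (−0.21 to 1.63), Ifi27 (−0.64 to 0.43), Gbp3 (−0.41 to 0.16) and Lgals3bp (−0.15 to 0.062). With an array left out, a genotype keeps a single number, so the step between numbers enters the difference. Within numbers Mx1 was higher in Hif1a-/- in both, and Ifi27, Gbp3 and Lgals3bp had opposite signs in the numbers. The causes of the sign changes were otherwise not tested.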
